A study of Mus musculus with 10 samples.

Results

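Transcripts of 39 genes of mitosis and the kinetochore were examined in the prostates of TRAMP mice that drank nicotine or plain water. The genes were taken by symbol from the platform annotation of a whole-transcript array, and each was represented by its single-symbol probe set with the highest mean over the 10 arrays. Of the 39, 38 were measured, among 19938 genes in all. All 38 passed the filter on low means and were tested among 14953 genes. The expression of Ccnb1, the gene of cyclin B1, was not analysed here, and its promoter is among those described further on.

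The mice were male TRAMP mice, in which a viral T antigen under the probasin promoter is made in the prostate epithelium. In 5 mice the drinking water held 250 µg/ml nicotine, added as the tartrate salt to tap water. The other 5 had plain tap water. Both began at 8 to 9 weeks of age. All 10 carried the transgene, so both groups are models of T antigen driven disease, and no mouse without it was analysed here. The age at collection is unknown here. Each mouse gave 1 array of prostate RNA, so p-values measure the spread between mice and the number of arrays limits the precision. Values are log2 expression units, in which a difference of 1 is a doubling.

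Mitosis is driven by the kinase Cdk1 and its cyclins, which are switched on in G2 and destroyed at anaphase by the anaphase-promoting complex. The kinetochore is the protein assembly on the centromere that holds spindle microtubules, and the spindle checkpoint delays anaphase until every chromosome is attached. The genes of these proteins are transcribed together late in the cell cycle. In resting cells they are held down by the DREAM complex, which contains the MuvB core and Rb-family proteins. In dividing cells MuvB joins B-Myb and FoxM1 to activate them. T antigen binds Rb-family proteins and p53. The expression of these genes in bulk tissue is widely used as a measure of how many cells are dividing, and more dividing cells or more RNA per cell cannot be told apart here.

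Arrays of 2 nicotine mice differed from the other 8 in their cell type markers. Chga, a secretory granule gene of neuroendocrine cells, read 11.74 (nicotine 1) and 11.3 (nicotine 3), against 7.07 to 7.73 in the water mice, and it lay at 7.35 to 7.52 in the other 3 nicotine mice. Over 16 of 18 listed neuroendocrine markers the mean was 9.65 in nicotine 3 and 9.26 in nicotine 1, from 7.21 to 7.48 in the other 3 nicotine mice, and from 6.97 to 7.54 in water mice. Prostate luminal markers (14 of 16 measured) averaged 7.36 in nicotine 3 and 10.7 in nicotine 1, with 11.4 to 11.7 in the other 3 nicotine mice and 11.4 to 11.9 in water mice. Pbsn, the probasin gene, was at 5.08 in nicotine 3, and at 9.17 in nicotine 1, against 10.9 to 12.2 in the other 3 nicotine mice and 10.95 to 11.54 in water mice, so a defining marker of the labelled tissue was low in nicotine 3. Skeletal muscle markers (12 of 12 measured) averaged 9.99 in nicotine 1 and 7.07 to 7.43 in the other 4 nicotine mice, against 7.24 to 7.41 in water mice. The part of these markers in the mitosis gene values of both mice was not tested, and results are given with and without the 2 arrays with Chga above 9.

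Every one of the 38 mitosis genes had a higher mean in nicotine mice than in water mice. The median log2 difference, nicotine minus water, was 0.95, a 1.93-fold change (0.61 without nicotine 3), with a range from 0.36 for Anln to 1.37 for Cdc25c. Over all tested genes the median was 0.0039, and 50.7% were higher by any amount. Without nicotine mice 1 and 3, the 38 differences were again all positive, with a median of 0.39, a 1.31-fold change, and a range from 0.03 for Mybl2 to 0.62 for Kif20a. Leaving out nicotine 2 or water 1 from these 8 mice turned Mybl2 to -0.03, and the other 37 stayed positive whichever of the 8 was left out. In those 8 mice 53.5% of all tested genes were higher by any amount, with a median of 0.0095.

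By limma with Benjamini-Hochberg adjustment over all tested genes, 0 of the 38 members passed an adjusted p of 0.05 in the fit on 10 mice, and 0% of all tested genes did. The smallest adjusted p among members was 0.458. At an unadjusted p under 0.05, 30 of 38 members were higher and 0 were lower, beside 4.28% of all tested genes that were higher. The count of 30 became 11 with the seminal vesicle marker mean as a covariate, beside 1.39% of all tested genes, and 12 with a block for its class, beside 1.44%. It was 15 without nicotine 1, beside 2.41%. It was 18 without water 1, water 2 or water 3, each left out alone, beside 2.97%, 3.13% and 1.89% of all tested genes. In 23 of 38 members the lowest nicotine mouse exceeded the highest water mouse, beside 2.02% of all tested genes.

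The fit without nicotine mice 1 and 3 had smaller differences and smaller errors. There too 0 of 38 members and 0% of all tested genes passed the adjusted threshold by limma, and the smallest adjusted p was 0.0582. The count at an unadjusted p under 0.05 was 35 of 38 members higher and 0 lower, beside 6.01% of all tested genes that were higher. The 3 others were Mad2l1, Anln and Mybl2. The 3 nicotine mice lay above all 5 water mice in 23 of 38 members, beside 4.12% of all tested genes. Ranked by p in this fit, Cdkn3 stood 1st of 14953 genes, Birc5 stood at 6 and Ccnb2 at 7, and 15 of the 38 members were in the first 100 ranks. In the fit on 10 mice the ranks of these 3 genes were 11, 750 and 44, and 4 members were in the first 100. The members were chosen with earlier results of these data known, so their ranks are a description only.

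The calls at the adjusted threshold depended on how the spread was modelled and on single mice. With array weights, which gave nicotine 3 a weight of 0.0321 and nicotine 1 a weight of 0.113, 31 of 38 members rose at an adjusted p under 0.05 by limma, beside 2.84% of all tested genes. In the 8 mice with array weights 32 of 38 rose, beside 3.11%. The median difference of the members with array weights was 0.45 in 10 mice, against 0.95 without them, and 0.45 in 8 mice. With a trended and robust variance in the 8 mice 7 rose, beside 0.147% of tested genes. These were Cdkn3, Ccnb2, Ccna2, Nusap1, Cenpa, Birc5 and Kif20a. Leaving out water 5 from the 8 mice gave 20 of 38, beside 0.395%, and leaving out nicotine 4 gave 4 of 38 (Cdkn3, Ccna2, Ccnb2 and Ect2), beside 0.0669%.

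**Figure D1:**
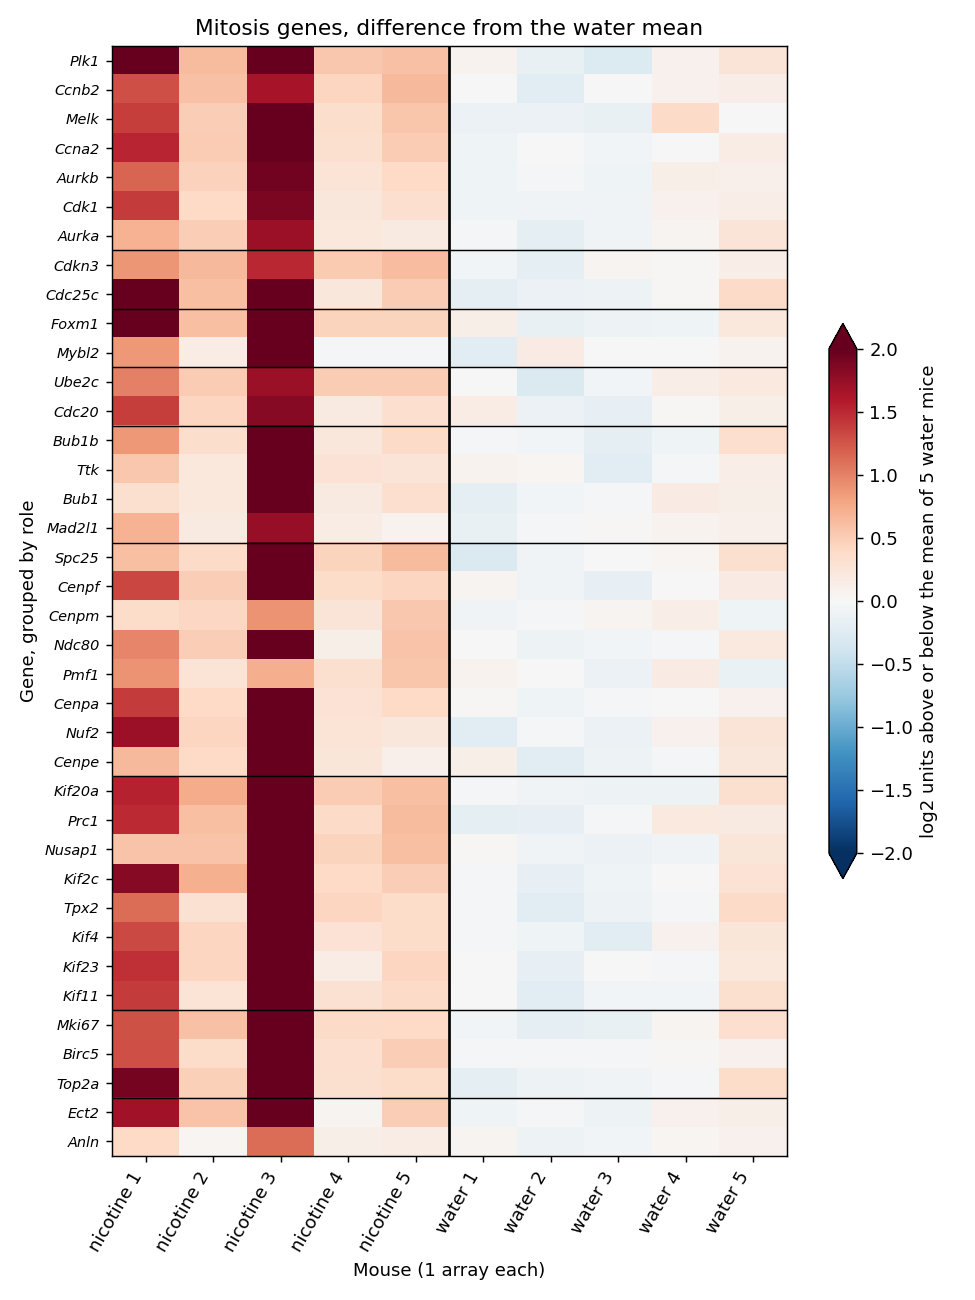
Difference of each mouse from the mean of the 5 water mice for the 38 measured genes, in log2 units; columns are mice, with nicotine mice left of the line and water mice right of it, rows are genes grouped by role, and colours stop at 2 units either way. Nicotine 3 was highest of the 10 mice in 37 of 38 genes, and nicotine 2, 4 and 5 were above the water mean in nearly all rows.

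The 5 nicotine mice did not contribute equally. Relative to the water mean of each gene, the median over the 38 members was 2.42 log2 units in nicotine 3 and 1.29 in nicotine 1, then 0.45 in nicotine 2, 0.44 in nicotine 5 and 0.29 in nicotine 4. In water mice 1 to 5 the same median was -0.04, -0.10, -0.08, 0.02 and 0.19. The lowest nicotine median was thus above the highest water median. Nicotine 3 was the highest of all 10 mice in 37 members, the exception being Pmf1, which was highest in nicotine 1. Nicotine 1 came 2nd in 33 members.

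Nicotine 1 and nicotine 3 were each above every water mouse in all 38 members. The corresponding number was 34 of 38 for nicotine 2, 31 for nicotine 5 and 28 for nicotine 4. Shares of all tested genes for single mice were not computed, so these counts and the per-mouse ranks are a description only. Among water mice, water 5 was highest in 30 of 38 members, while the lowest was water 2 in 15, water 3 in 11 and water 1 in 10. Most members also moved together among the water mice. Over the 5 water mice alone, the correlation of a member with the mean of the other members had a median of 0.84. It was above 0 in 36 of 38 members, with Cenpm at -0.21 and Pmf1 at -0.20, and reached 1.00. Over the 8 mice it had a median of 0.94, from 0.17 for Mybl2 to 0.98. The points of these correlations share whole arrays, and they are given as a description.

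Among markers of other cell types, only the fibroblast range of nicotine mice 2, 4 and 5 lay apart from that of the water mice. Fibroblast markers (10 of 10 measured) averaged 9.36 to 9.62 in nicotine mice 2, 4 and 5, against 9.91 to 10.3 in water mice. All 10 were lower in those 3 mice on average, and the log2 of their summed level was 13.5 to 13.6 in the 3 mice, against 13.8 to 14.1 in water mice. Leukocyte markers (11 of 12 measured) averaged 7.35 to 7.49 in the same 3 nicotine mice, against 7.37 to 7.90 in water mice, with 10 of 11 lower and a log2 summed level of 11.2 to 11.3, against 11.2 to 12.0 in water mice. Basal epithelial markers (8 of 8 measured) averaged 8.23 to 8.56 in the 3 nicotine mice, against 8.25 to 8.44 in water mice. Smooth muscle markers (12 of 12 measured) averaged 10.6 to 10.9 in the 3 nicotine mice, against 10.5 to 10.8 in water mice. Nicotine 3 lay below the water range in each of these lists, at 8.95 (fibroblast), 6.90 (leukocyte), 7.79 (basal) and 8.17 (smooth muscle). Nicotine 1 did so too, at 9.66, 7.15, 8.15 and 10.04. The part of fibroblast, leukocyte, basal and smooth muscle content in the mitosis gene differences was not tested.

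Seminal vesicle markers were high in some samples. They (11 of 11 measured) averaged above 10 log2 units in nicotine 5 (12.1) and in water 3, 4 and 5 (11.6 to 12.6), and between 6.06 and 8.42 in the other 6 mice. Mice without high Chga, 8 in all, gave these differences within each class, with no test. In the class at or below 10, nicotine mice 2 and 4 exceeded water mice 1 and 2 by a median of 0.44, with 38 of 38 members higher and 36 not overlapping, beside 13.7% of all tested genes not overlapping. In the class above 10, nicotine 5 exceeded water mice 3, 4 and 5 by a median of 0.39, with 37 of 38 higher, Mybl2 at -0.04 and 31 not overlapping, beside 30.0% of all tested genes. With so few mice a class, the part of seminal vesicle content in the differences cannot be read from these values.

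**Figure D2:**
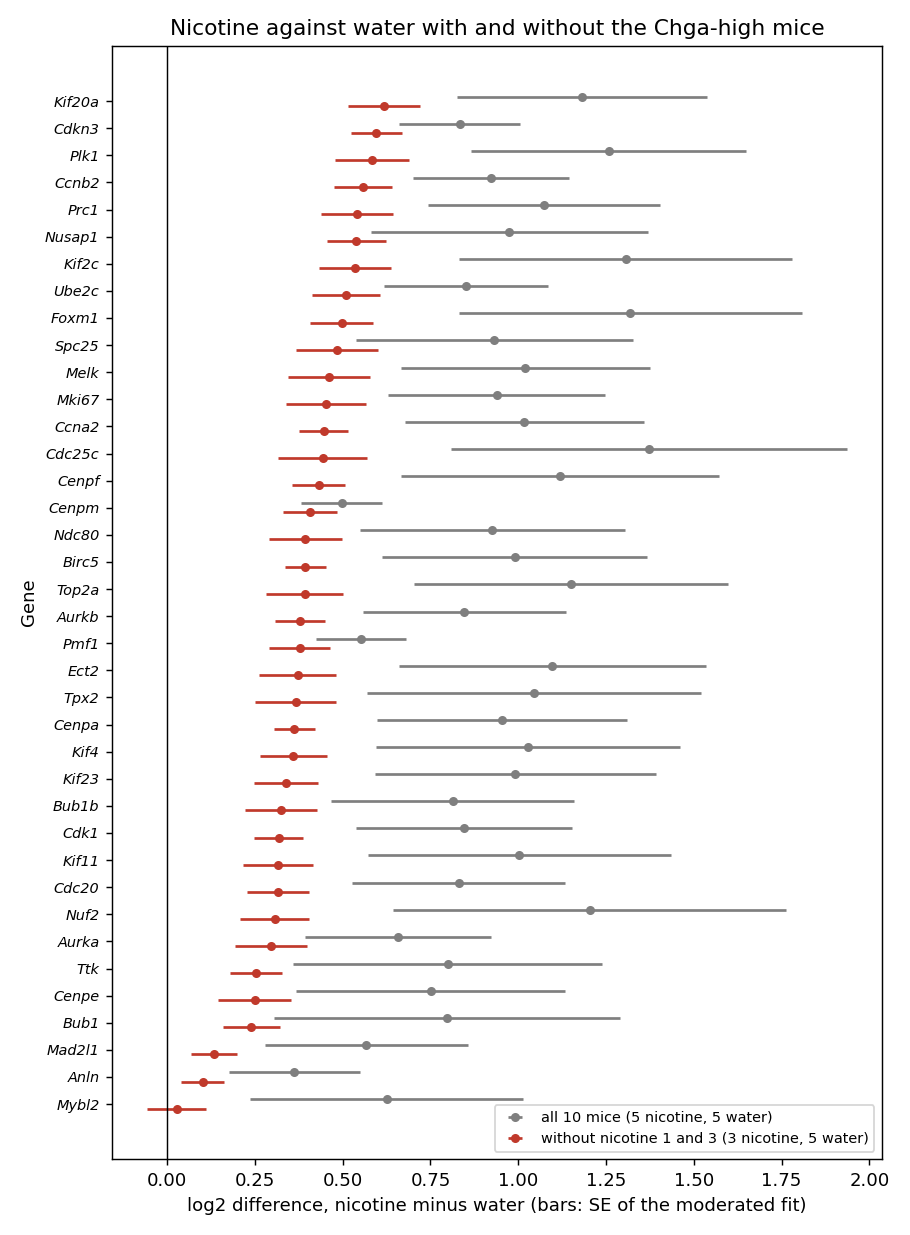
Log2 difference, nicotine minus water, of each of the 38 genes with its SE, from the fit on all 10 mice (grey) and the fit on 8 mice without nicotine 1 and 3 (red); genes run down the page by their difference in the 8 mice. The medians were 0.95 and 0.39, and Mad2l1, Anln and Mybl2 lay nearest to 0 in the 8 mice.

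Promoter sequence was not part of the rule that took the genes by symbol. Promoter windows of 250 bases before to 50 bases after the annotated start were taken from RefSeq on GRCm38.p6. Windows were matched for 33 of the 39 listed genes, with Ccna2, Cdc25c, Aurkb, Foxm1, Kif20a and Tpx2 not matched. The cell cycle genes homology region, or CHR, is the element through which MuvB complexes bind these promoters, and its core is TTTGAA. NF-Y binds CCAAT boxes, which often lie upstream of a CHR. Shown are the 150 bases before the start of 8 members. They include 4 with both motifs near the start and the 4 members with the smallest p in the fit on 10 mice. Capitals mark TTTGAA and CCAAT on either strand, so that TTCAAA and ATTGG are the same motifs on the other strand. 
Cdk1 (chr10:69352913-69353062, minus strand): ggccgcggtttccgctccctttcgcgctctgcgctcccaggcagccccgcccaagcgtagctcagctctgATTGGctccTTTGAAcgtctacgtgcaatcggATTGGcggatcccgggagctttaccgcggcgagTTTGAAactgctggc
Cdc20 (chr4:118437344-118437493, minus strand): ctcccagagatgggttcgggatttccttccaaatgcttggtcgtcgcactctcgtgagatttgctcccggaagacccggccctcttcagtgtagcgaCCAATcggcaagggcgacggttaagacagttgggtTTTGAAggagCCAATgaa
Ube2c (chr2:164769779-164769928, plus strand): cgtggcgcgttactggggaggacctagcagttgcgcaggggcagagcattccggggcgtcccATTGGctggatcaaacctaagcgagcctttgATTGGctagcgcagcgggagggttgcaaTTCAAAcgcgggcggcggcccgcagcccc
Prc1 (chr7:80294326-80294475, plus strand): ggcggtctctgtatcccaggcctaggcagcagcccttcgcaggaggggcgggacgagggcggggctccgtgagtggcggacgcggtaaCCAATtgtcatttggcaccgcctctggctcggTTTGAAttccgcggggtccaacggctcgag
Ccnb2 (chr9:70421555-70421704, minus strand): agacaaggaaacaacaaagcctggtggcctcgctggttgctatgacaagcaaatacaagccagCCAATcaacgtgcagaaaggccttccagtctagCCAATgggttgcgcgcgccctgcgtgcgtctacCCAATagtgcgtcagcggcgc
Cdkn3 (chr14:46760391-46760540, plus strand): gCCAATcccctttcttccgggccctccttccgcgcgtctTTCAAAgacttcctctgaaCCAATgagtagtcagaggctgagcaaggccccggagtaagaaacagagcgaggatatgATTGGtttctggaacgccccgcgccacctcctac
Cenpm (chr15:82244337-82244486, minus strand): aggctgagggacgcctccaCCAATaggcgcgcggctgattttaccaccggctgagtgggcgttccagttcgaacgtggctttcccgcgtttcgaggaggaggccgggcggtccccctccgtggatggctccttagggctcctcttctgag
Pmf1 (chr3:88410398-88410547, minus strand): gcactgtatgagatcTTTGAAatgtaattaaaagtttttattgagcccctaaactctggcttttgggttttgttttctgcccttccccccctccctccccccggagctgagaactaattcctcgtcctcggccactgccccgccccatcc

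In the printed stretches of Cdk1, Cdc20, Ube2c and Prc1, a TTTGAA core began 15, 18, 29 and 30 bases before the start, on the other strand in Ube2c, each with at least 1 CCAAT box further upstream. Ccnb2 had CCAAT boxes beginning 87, 54 and 21 bases before the start, and its nearest TTTGAA began at base 5 after it, outside the printed stretch. Cdkn3 had its core on the other strand, beginning 111 bases before the start. Cenpm had no TTTGAA in its window, and the only one of Pmf1 began 135 bases before the start.

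A gene with several windows was counted if any of them held the match. TTTGAA on either strand was found in 23 of the 33 members with a window, or 69.7%, against 14.3% of 11831 tested genes. Within 50 bases of the start it was found in 19 members, or 57.6%, against 3.69% of tested genes. This narrower span was chosen after the positions were seen. CCAAT on either strand was found in 24 members, or 72.7%, against 41.5%, and at least 2 copies within a window in 17, or 51.5%, against 15.2%. Both motifs were found within a window in 20 members, or 60.6%, against 5.67%. E2F-type words (TTTCCCGC, TTTGGCGC, TTTCGCGC or TTTGCCGC, either strand) were found in 2 members, Cdk1 and Cenpm, or 6.06%, against 4.25%. Of mitosis genes outside the member list, 45 of 94 with a window had TTTGAA, or 47.9%. CCAAT was found in 61.7% of them, both in 35.1% and E2F-type words in 11.7%. In the windows of the members, 0 pairs of matches of different kinds shared bases. The CHR is known in genes of this class, so these shares are not independent of the choice of genes. A match describes the letters only.

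**Figure D3:**
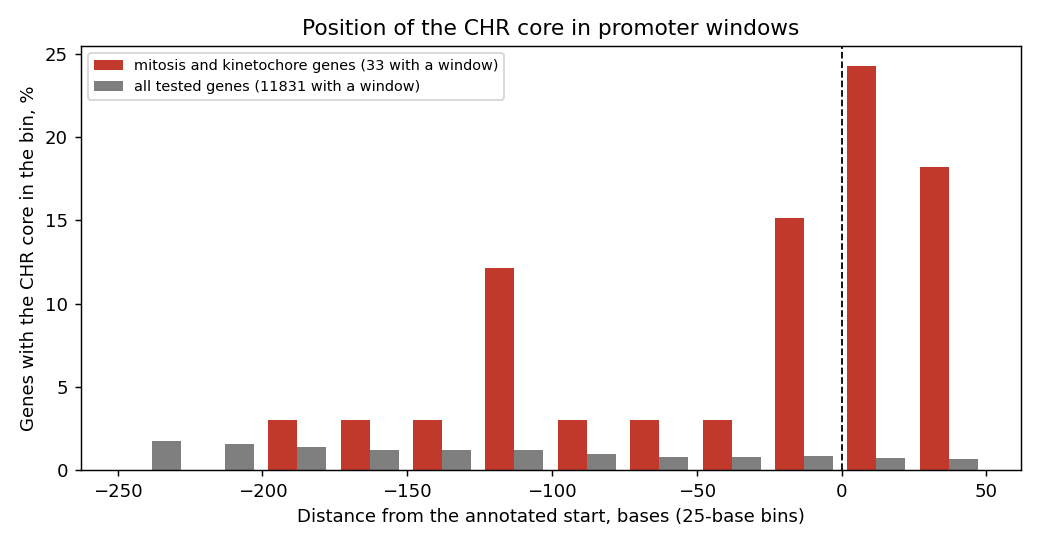
Share of genes with the CHR core on either strand in each 25-base bin of the promoter window, with distance from the annotated start on the x axis and percent of genes on the y axis, for 33 mitosis and kinetochore genes (red) and 11831 tested genes (grey). Among the mitosis genes the bins holding most genes were those from 25 bases before to 50 bases after the start.

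Of the cyclins and mitotic kinases, 7 of 8 were measured. All 7 were higher at an unadjusted p under 0.05 in both fits, beside 4.28% (10 mice) and 6.01% (8 mice) of all tested genes. In 5 of 7 the groups did not overlap, beside 2.02% and 4.12% of all tested genes. Ccnb2, which encodes a cyclin partner of Cdk1, was at 11.08, 10.38, 11.44, 10.22 and 10.45 log2 units in nicotine mice 1 to 5, against 9.80, 9.59, 9.78, 9.88 and 9.92 in water mice 1 to 5. No nicotine mouse reached down to a water mouse. The means were 10.72 ± 0.52 in nicotine mice and 9.79 ± 0.13 in water mice (SD, n = 5 each), and the difference was 0.92 ± 0.22 (SE) in 10 mice and 0.56 ± 0.08 (SE) in 8, with an adjusted p of 0.0582 by limma in the fit on 8.

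Cdk1, the kinase that drives entry into mitosis, was at 11.44, 10.44, 11.92, 10.27 and 10.37 log2 units in nicotine mice 1 to 5, against 9.97, 9.97, 9.97, 10.14 and 10.18 in water mice 1 to 5. The groups did not overlap, with the closest pair being nicotine 4 and water 5. The difference was 0.85 ± 0.31 (SE) in 10 mice and 0.32 ± 0.07 (SE) in 8. Ccna2, the gene of the S phase and G2 cyclin A2, lay between 10.12 and 12.03 in nicotine mice and between 9.71 and 9.95 in water mice, with a difference of 0.45 ± 0.07 (SE) in 8 mice.

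Plk1, a kinase of centrosome maturation and spindle assembly, was at 10.96, 9.57, 11.46, 9.47 and 9.53 log2 units in nicotine mice 1 to 5, against 9.02, 8.79, 8.67, 9.03 and 9.20 in water mice 1 to 5. The groups did not overlap, and the 3 nicotine mice without high Chga spanned 0.097 log2 units. The difference was 1.26 ± 0.39 (SE) in 10 mice and 0.58 ± 0.11 (SE) in 8. Aurka, the kinase of the spindle poles, was at 9.27, 9.07, 10.29, 8.79 and 8.76 log2 units in nicotine mice 1 to 5, against 8.53, 8.38, 8.51, 8.63 and 8.83 in water mice 1 to 5. Here the groups overlapped, since water 5 was above nicotine mice 4 and 5, and the difference was 0.30 ± 0.10 (SE) in 8 mice. Aurkb, the kinase of the chromosomal passenger complex, had groups that did not overlap and a difference of 0.38 ± 0.07 (SE) in 8 mice. Melk, a kinase gene linked to proliferation, differed by 0.46 ± 0.12 (SE), with water 4, at 8.27, above nicotine 4, at 8.23.

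Both phosphatase genes that act on cyclin-dependent kinases were higher at an unadjusted p under 0.05, beside 4.28% of all tested genes in 10 mice. Cdkn3, which encodes a phosphatase that removes an activating phosphate from Cdk1 and Cdk2, was at 9.06, 8.83, 9.68, 8.70 and 8.81 log2 units in nicotine mice 1 to 5, against 8.14, 8.01, 8.24, 8.21 and 8.32 in water mice 1 to 5. The lowest nicotine mouse was 0.38 log2 units above the highest water mouse. Means were 9.02 ± 0.40 in nicotine mice and 8.18 ± 0.12 in water mice (SD, n = 5 each), a difference of 0.83 ± 0.17 (SE) in 10 mice and 0.60 ± 0.07 (SE) in 8, where the adjusted p by limma was 0.0582. Cdc25c, whose product does the opposite and activates Cdk1, differed by 1.37 ± 0.56 (SE) in 10 mice and 0.44 ± 0.13 (SE) in 8. It was 10.97-fold above the water mean in nicotine 3, and its groups overlapped because water 5, at 7.23, was above nicotine 4, at 7.08.

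The transcription factors were Foxm1 and Mybl2, whose products act with the MuvB core. Foxm1 was at 9.97, 8.58, 11.07, 8.41 and 8.42 log2 units in nicotine mice 1 to 5, against 8.10, 7.82, 7.88, 7.89 and 8.18 in water mice 1 to 5. The groups did not overlap, and the difference was 1.32 ± 0.49 (SE) in 10 mice and 0.50 ± 0.09 (SE) in 8. Mybl2, the gene of B-Myb, was at 9.15, 8.42, 10.45, 8.24 and 8.26 log2 units in nicotine mice 1 to 5, against 8.07, 8.45, 8.27, 8.26 and 8.34 in water mice 1 to 5. Its values in nicotine mice 2, 4 and 5 lay within the range of the water mice, and the difference was 0.63 ± 0.39 (SE) in 10 mice and 0.03 ± 0.08 (SE) in 8, with an adjusted p of 0.911 by limma. In nicotine 3 it was 4.50-fold and in nicotine 1 it was 1.83-fold above the water mean. A difference between the Foxm1 and Mybl2 responses was not tested.

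Both partners of the anaphase-promoting complex had groups that did not overlap, beside 2.02% of all tested genes in 10 mice. Ube2c, the gene of its ubiquitin-conjugating enzyme, was at 9.43, 8.94, 10.15, 8.93 and 8.94 log2 units in nicotine mice 1 to 5, against 8.44, 8.14, 8.38, 8.56 and 8.62 in water mice 1 to 5. The 3 nicotine mice without high Chga spanned 0.012 log2 units, and the difference was 0.85 ± 0.23 (SE) in 10 mice and 0.51 ± 0.10 (SE) in 8. Cdc20, its activator at anaphase, lay between 8.77 and 10.41 in nicotine mice and between 8.42 and 8.74 in water mice, with a difference of 0.32 ± 0.09 (SE) in 8 mice.

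The spindle checkpoint genes had a median difference of 0.80 in 10 mice and 0.25 in 8. Of the 4, 1 was higher at an unadjusted p under 0.05 in 10 mice, and 3 were in 8 mice. The shares of all tested genes higher at that threshold were 4.28% and 6.01%. Bub1, a checkpoint kinase gene, was at 8.29, 8.18, 10.92, 8.15 and 8.31 log2 units in nicotine mice 1 to 5, against 7.79, 7.91, 7.94, 8.13 and 8.08 in water mice 1 to 5. Nicotine 3 was far above the rest, and the closest pair, nicotine 4 and water 4, differed by 0.02. Ttk, the gene of the checkpoint kinase Mps1, was at 7.70, 7.38, 9.87, 7.45 and 7.43 log2 units in nicotine mice 1 to 5, against 7.24, 7.21, 6.97, 7.14 and 7.30 in water mice 1 to 5. It too was set apart by nicotine 3, 6.51-fold above the water mean, while nicotine 1 was 1.45-fold above it.

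Bub1 and Ttk had 2 of the 3 largest p-values among members in 10 mice, although their groups did not overlap, and their differences in 8 mice were 0.24 ± 0.08 (SE) and 0.25 ± 0.07 (SE). Bub1b, the gene of the checkpoint protein BubR1, differed by 0.33 ± 0.10 (SE) in 8 mice. Mad2l1, the gene of the Mad2 inhibitor of Cdc20, differed by 0.13 ± 0.06 (SE) there, with an adjusted p of 0.373 by limma.

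The centromere and kinetochore genes had a median difference of 0.93 in 10 mice and 0.39 in 8. All 8 genes were higher at an unadjusted p under 0.05 in the 8 mice, beside 6.01% of all tested genes. Cenpm, a constitutive centromere component, was at 10.04, 10.09, 10.57, 9.93 and 10.21 log2 units in nicotine mice 1 to 5, against 9.60, 9.63, 9.72, 9.80 and 9.58 in water mice 1 to 5. Means were 10.17 ± 0.24 in nicotine mice and 9.67 ± 0.09 in water mice (SD, n = 5 each), and nicotine 1 was not set apart from nicotine mice 2, 4 and 5. The difference was 0.50 ± 0.12 (SE) in 10 mice and 0.41 ± 0.08 (SE) in 8. Pmf1, which encodes a subunit of the Mis12 kinetochore complex, was at 9.56, 8.93, 9.39, 8.98 and 9.21 log2 units in nicotine mice 1 to 5, against 8.74, 8.65, 8.55, 8.83 and 8.53 in water mice 1 to 5. Nicotine 1 and 3 were highest, and the groups did not overlap. The difference was 0.55 ± 0.13 (SE) in 10 mice and 0.38 ± 0.09 (SE) in 8.

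Cenpm and Pmf1 varied least among the nicotine mice. The SD over nicotine mice was 0.24 and 0.27, against 0.40 to 1.37 in the other 36 members. The Ndc80 complex, which binds microtubules, was represented by Ndc80 (0.39 ± 0.10 in 8 mice, SE), Nuf2 (0.31 ± 0.10) and Spc25 (0.48 ± 0.12), of which only Spc25 had groups that did not overlap. Cenpa, the centromeric histone variant, differed by 0.36 ± 0.06 (SE) with groups that did not overlap, as did Cenpf, a large kinetochore protein gene, by 0.43 ± 0.07 (SE). Cenpe, the kinetochore motor, differed by 0.25 ± 0.10 (SE), and nicotine 5, at 7.68, lay below water 1 and water 5.

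Spindle proteins and motors had a median difference of 1.04 in 10 mice and 0.45 in 8. All 8 genes were higher at an unadjusted p under 0.05 in the 8 mice, beside 6.01% of all tested genes. Kif20a, a kinesin of the central spindle, was at 9.80, 8.99, 10.77, 8.76 and 8.85 log2 units in nicotine mice 1 to 5, against 8.21, 8.18, 8.14, 8.14 and 8.58 in water mice 1 to 5. The groups did not overlap, water 5 stood above the other 4 water mice, and the difference was 1.18 ± 0.36 (SE) in 10 mice and 0.62 ± 0.10 (SE) in 8. Prc1, which encodes a protein that bundles central spindle microtubules, was at 10.15, 9.27, 10.93, 9.05 and 9.29 log2 units in nicotine mice 1 to 5, against 8.48, 8.50, 8.63, 8.86 and 8.85 in water mice 1 to 5. No nicotine mouse overlapped the water mice, and the difference was 1.07 ± 0.33 (SE) in 10 mice and 0.54 ± 0.10 (SE) in 8.

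Nusap1, a spindle protein gene, was at 9.07, 9.07, 11.19, 8.95 and 9.10 log2 units in nicotine mice 1 to 5, against 8.53, 8.43, 8.38, 8.43 and 8.74 in water mice 1 to 5. Nicotine mice 1, 2, 4 and 5 were alike and nicotine 3 stood far above them, and the difference was 0.54 ± 0.08 (SE) in 8 mice. Kif2c, a microtubule-depolymerising kinesin, differed by 0.54 ± 0.10 (SE) there, and Kif4, a chromosome-arm kinesin, by 0.36 ± 0.10 (SE), both with groups that did not overlap. Tpx2, which activates the Aurka kinase, differed by 0.37 ± 0.12 (SE). Kif11, the motor that separates spindle poles, differed by 0.32 ± 0.10 (SE) and Kif23, a kinesin of cytokinesis, by 0.34 ± 0.09 (SE). In these 3 genes the groups overlapped at water 5.

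Among the chromosome and passenger proteins, Mki67, the gene of the Ki-67 antigen used to score proliferation, was at 11.47, 10.79, 12.27, 10.59 and 10.60 log2 units in nicotine mice 1 to 5, against 10.15, 10.02, 10.06, 10.26 and 10.55 in water mice 1 to 5. The groups did not overlap, but water 5, at 10.55, was close to nicotine 4, at 10.59. The difference was 0.94 ± 0.31 (SE) in 10 mice and 0.45 ± 0.11 (SE) in 8. Top2a, the topoisomerase that untangles sister chromatids, was at 11.14, 9.71, 11.90, 9.56 and 9.60 log2 units in nicotine mice 1 to 5, against 9.06, 9.13, 9.16, 9.21 and 9.61 in water mice 1 to 5. Water 5 was above nicotine 4 and nicotine 5, so the groups overlapped, and the difference was 0.39 ± 0.11 (SE) in 8 mice. Top2a had 2 probe sets, and with their mean its difference in 10 mice was 0.65, against 1.15 with the one shown. Birc5, which encodes the passenger protein survivin, was at 8.95, 8.03, 10.15, 8.00 and 8.15 log2 units in nicotine mice 1 to 5, against 7.64, 7.62, 7.63, 7.69 and 7.76 in water mice 1 to 5. The water mice were close together, with an SD of 0.06, and the difference was 0.99 ± 0.38 (SE) in 10 mice and 0.39 ± 0.06 (SE) in 8, with an adjusted p of 0.0582 by limma.

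Both cytokinesis genes had overlapping groups. Ect2, the exchange factor that activates RhoA at the cleavage plane, lay between 8.95 and 11.58 in nicotine mice and between 8.80 and 9.02 in water mice, with nicotine 4 below water mice 4 and 5, and differed by 0.37 ± 0.11 (SE) in 8 mice. Anln, the gene of the actin-binding protein anillin, lay between 9.73 and 10.80 in nicotine mice and between 9.58 and 9.78 in water mice, and differed by 0.10 ± 0.06 (SE) in 8 mice, with an adjusted p of 0.476 by limma.

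**Figure D4:**
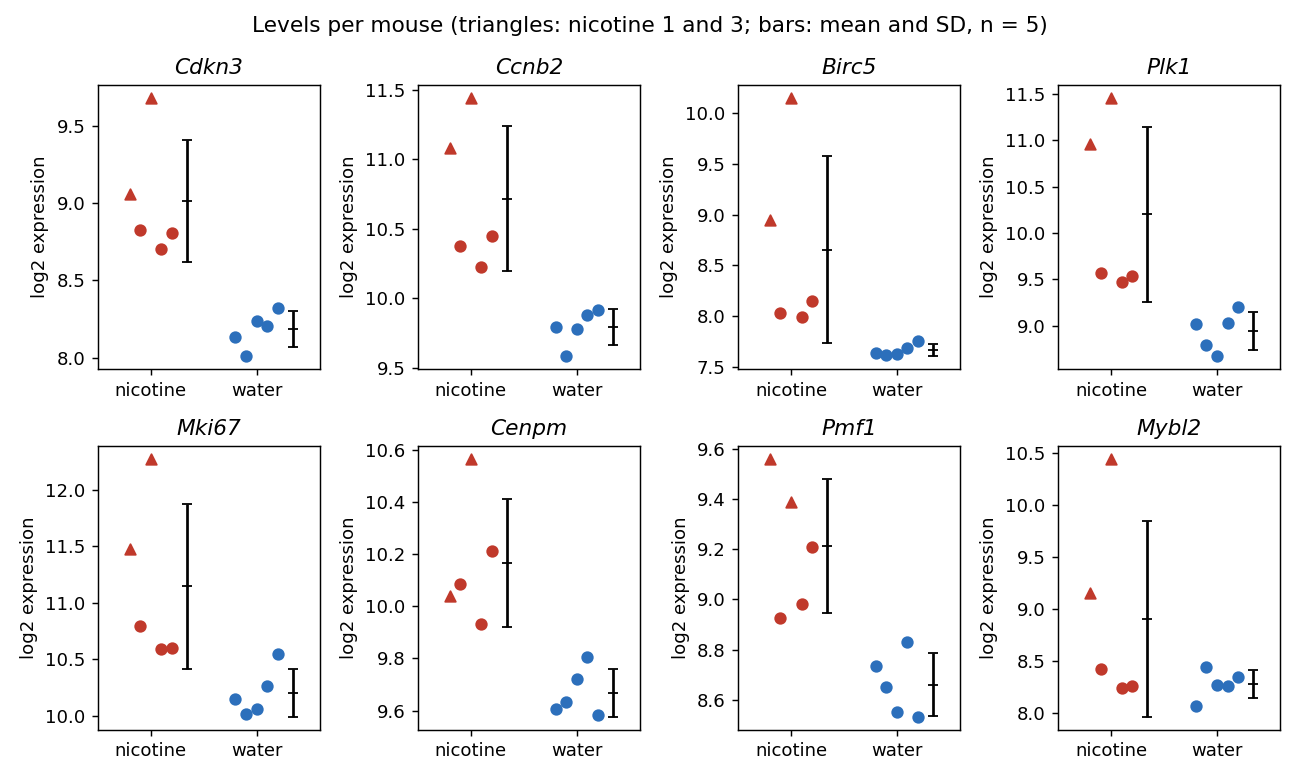
Log2 expression of 8 genes in each mouse, with nicotine mice (red) left of water mice (blue) and the mean and SD of each group in black (n = 5); triangles mark nicotine 1 and 3. The groups do not overlap in 7 of the 8 panels, against 23 of all 38 members and 2.02% of all tested genes. Birc5 was added after its values were seen. In Mybl2 nicotine mice 2, 4 and 5 lie among the water mice.

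The size of the difference in the Chga-high mice varied between members. Nicotine 3 was 10.97-fold above the water mean in Cdc25c and 10.5-fold in Nuf2, against 1.65-fold in Pmf1 and 1.86-fold in Cenpm. Nicotine 1 was 4.21-fold above it in Cdc25c, 4.06-fold in Plk1 and 4.01-fold in Foxm1, against 1.25-fold in Bub1 and 1.29-fold in Cenpm. The 2 mice were furthest apart in Bub1, Ttk, Nusap1 and Spc25, where nicotine 1 was lower than nicotine 3 by more than 2 log2 units (differences of -2.62, -2.17, -2.11 and -2.01). They were within 0.5 of each other in Ccnb2, Cdk1, Cdc20, Plk1 and Pmf1. Each value rests on a single array.

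Other cell cycle lists were set beside the members. Of 107 tested genes of mitosis outside the member list, 99 were higher in 10 mice and 8 lower. Their median difference was 0.64 (0.33 without nicotine 3). At an unadjusted p under 0.05, 46 were higher, beside 4.28% of all tested genes. In 8 mice the median was 0.20, with 65 higher and 2 lower at that threshold. There 6.01% of all tested genes were higher. The genes with the smallest p in 10 mice were Pkmyt1, an inhibitory kinase of Cdk1 (0.34 ± 0.08 SE), Arhgef39 (0.65 ± 0.20), Cks2, a Cdk1-binding protein gene (0.55 ± 0.18), and Ube2s, another ubiquitin-conjugating enzyme of the anaphase-promoting complex (0.69 ± 0.23). All 4 were higher in 8 mice as well, by 0.36, 0.38, 0.31 and 0.30. None passed the adjusted threshold.

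Genes of DNA replication and nucleotide synthesis had a smaller median difference than the mitosis members, 0.38 in 10 mice and 0.17 in 8. Of 57 tested, 54 were higher in 10 mice, and 29 were higher and 1 lower at an unadjusted p under 0.05. The share of all tested genes higher at that threshold was 4.28%. Tk1, the thymidine kinase of S phase, was at 8.99, 9.03, 9.34, 9.13 and 9.15 in nicotine mice 1 to 5, against 8.73, 8.74, 8.70, 8.83 and 8.68 in water mice 1 to 5, with no overlap and with nicotine 1 lowest of the nicotine mice. Mcm5 (0.47 ± 0.11 SE), Tyms (0.54 ± 0.14) and Pold1 (0.40 ± 0.10) followed by p, all without overlap. Of the 48 replication genes with a promoter window, 7 had TTTGAA, or 14.6%, and 16 had E2F-type words, or 33.3%.

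The list of G1 cyclins and kinases, which also held Cdk7 and Ccnh, had a median difference of -0.0016 in 10 mice and 0.022 in 8. Of 13 tested, 6 were higher and 7 lower in 10 mice, and at an unadjusted p under 0.05 none were higher and 1, Cdk7 at -0.20 ± 0.08 (SE), was lower. Ccne1, the gene of cyclin E1, differed by 0.51 ± 0.24 and by 0.26 ± 0.08 in 8 mice, Ccnh by -0.23 ± 0.11 and Cdk4 by 0.24 ± 0.13. The 6 measured cyclin-dependent kinase inhibitors had a median of 0.26 in 10 mice and 0.10 in 8, and Cdkn2b alone had groups that did not overlap (0.21 ± 0.06 SE). Cdkn2d was at 9.21 in nicotine 1 and 9.47 in nicotine 3, against 7.60 to 7.71 in the other 3 nicotine mice and 7.37 to 7.64 in water mice. Cdkn2c differed by 0.28 ± 0.15 and Cdkn2a by 0.22 ± 0.12. The differences between lists were not tested. Members and lists were chosen with earlier results of these data known, so the order of the lists is a description only.

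**Figure D5:**
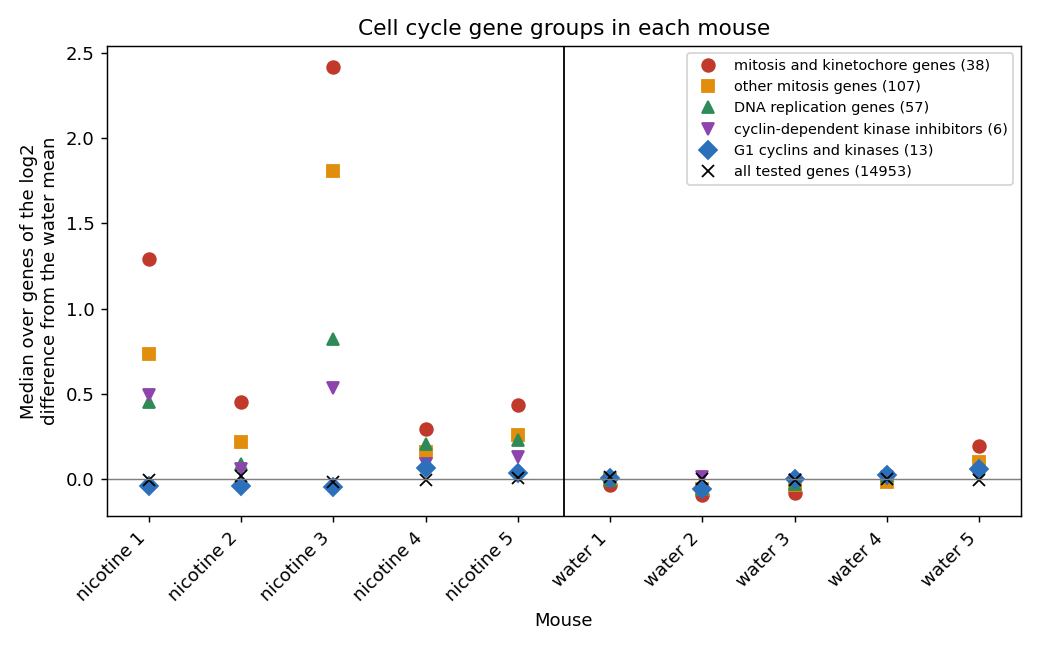
Median over the genes of each list of the log2 difference from the water mean, for each mouse, with nicotine mice left of the line and water mice right of it. The mitosis and kinetochore genes lay above every other list in all 5 nicotine mice, from 0.29 in nicotine 4 to 2.42 in nicotine 3. The median of all tested genes stayed near 0. All lists were chosen with earlier results of these data known, and their differences were not tested.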

How the data were processed

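Gene expression was measured in the prostates of 10 male TRAMP mice on single-colour whole-transcript arrays, 1 array per mouse, with total RNA extracted with Trizol and amplified and biotin-labelled, per the labels' protocols. The values deposited by the authors are log2 expression per probe set, as judged from the values. How the authors corrected, summarised and normalized the probe signals is unknown here. Array medians lay between 7.50 and 7.57 log2 units.

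Probe sets were named through the platform annotation. Of 35556 probe sets, 21789 had 1 symbol, 1621 had several and 12146 were unnamed here. Of those with 1 symbol, 21698 matched RefSeq by Entrez identifier and 0 symbols changed. Each of 19938 genes was represented by its single-symbol probe set with the highest mean, and the 25% with the lowest mean were left out. Differences, nicotine minus water, were tested with limma 3.58.1 in R 4.3.3 (lmFit and eBayes) with Benjamini-Hochberg adjustment over 14953 genes, on 10 arrays and on the 8 without Chga above 9. The fit was tested on simulated data. Alternatives covered the filter, probe set averaging, normalization, variance model, array weights, tissue content, mouse number and each mouse left out.

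The members and the gene lists were chosen with earlier results of these data known. Values per mouse are given for the 8 members with the smallest and the 3 with the largest unadjusted p on 10 arrays, and for Mki67, Top2a, Cdk1, Aurka, Plk1, Foxm1 and Mybl2. Nusap1 and Birc5 were added after their values were seen. From each comparison list the 4 genes with the smallest p are named. Promoter windows came from RefSeq on GRCm38.p6.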

Additional observations from a re-analysis of the deposited data

Results flagged for a closer look

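A single mouse lay far from the others of its group, by Dixon's criterion, in 8 of 76 combinations of a member and a group. Chance gives about 1 in 20 for a single combination. The members share arrays and mostly moved together, so the count cannot be set against that rate. In the nicotine group the mouse was nicotine 3 in all 5 cases, at 10.92 log2 units in Bub1, 9.94 in Cenpe, 9.87 in Ttk, 11.19 in Nusap1 and 11.10 in Spc25. In the water group, water 5 was high in Kif20a at 8.58 and in Top2a at 9.61, and water 4 was high in Melk at 8.27.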

How the results depend on the processing

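Of the alternatives run on 10 mice, array weights changed the number of members past an adjusted p of 0.05 by limma, to 31 of 38, and the other 20 left it at 0. At an unadjusted p under 0.05, 11 members were higher with the seminal vesicle marker mean as a covariate (1.39% of all tested genes). With its class as a block the number was 12 (1.44%). With single mice left out it was lowest without nicotine 1, at 15 (2.41%), and highest without nicotine 3, at 35. Over those fits the share of all tested genes ran from 1.89% (without water 3) to 7.56% (without nicotine 4). The median difference was 0.45 with array weights and ranged from 0.61 to 1.11 when single mice were left out. The number of members without overlap then ranged from 23 to 33, with 33 without water 5 beside 448 of 14953 tested genes. In the 8 mice the number past the adjusted threshold was 32 with array weights, 7 with a trended and robust variance, and 0 to 20 when single mice were left out, with 4 without nicotine 4 and 20 without water 5. The median difference there ranged from 0.36 to 0.43. With the seminal vesicle class as a block in the 8 mice, the median was 0.41. In that fit 34 members were higher at an unadjusted p under 0.05 (753 of 14953 tested genes). With the mouse number as a replicate block, 0 members passed the adjusted threshold in either fit, and 25 in 10 mice (2.53% of all tested genes) and 31 in 8 (4.95%) were higher at an unadjusted p under 0.05. Deviations of same-numbered mice from their group means had correlations of 0.02, -0.13, -0.08, 0.01 and 0.16 for numbers 1 to 5. Nicotine 1 and 3 shift the nicotine mean, so these values cannot settle whether the numbers mark a pairing. The labels state none. Of the single member differences under the 21 alternatives to the fit on 10 mice, 764 kept their direction and their side of the adjusted threshold, 31 passed it with array weights, and 0 reversed. In the 8 mice, Mybl2 turned to -0.03 without nicotine 2 or water 1. Leaving out the lowest 50% of genes left 35 members tested. The authors' normalization is unknown, and 5 mice a group, 2 of them with high Chga, limit the precision.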
